A study of Rattus norvegicus with 6 samples.

Results

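Peripheral nerve myelin and root genes were examined in spinal cord RNA-seq of rats with bone cancer pain (BCP), as a measure of nerve root carried with the cord. The 7 genes were taken by symbol from the table of 30957 genes: Pmp22, Pmp2, Prx, Ncmap, Egr2, Avil and Mrgprd. All 7 were found, 5 had enough counts to be tested, and Ncmap and Mrgprd did not. Of the 5 tested genes, only Egr2 passed the test, and it was up-regulated in BCP from a very low level, having entered the test through its BCP counts and passing in 10 of 15 alternative settings. Pmp22, Prx and Avil had lower means in BCP, and Pmp2 a higher one, but none of the 4 passed. The central myelin genes of the same libraries were down-regulated in most cases.

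Both groups were adult female Wistar rats. The BCP group was given living Walker 256 breast cancer cells in the marrow cavity of the left tibia, and the sham group heat-killed cells in the same way. The ipsilateral part of the lumbar enlargement was taken on day 14, after the meninges had been removed, and total RNA was sequenced after ribosomal RNA removal. Each group had 3 libraries, called sham 1 to 3 and BCP 1 to 3. The sham rats carried dead tumour cells, so the comparison is between living and dead cells, with no rat free of injection. The labels number the replicates and do not say which rat each came from, so the p-values measure only the spread between these libraries.

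Schwann cells wrap the axons of nerves and spinal roots, and oligodendrocytes wrap those of the cord, with the border a short way along each root. Both sheaths use proteins such as Mbp, but Pmp22 and Pmp2 belong to the compact myelin of peripheral nerve, while Prx organizes the outer face of the Schwann cell. Sensory neurons have their cell bodies in the dorsal root ganglia, outside the cord, and send axons through the dorsal root.

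The deposited gene counts summed to between 11779485 and 15004290 per library, and the ranges of the sham and BCP libraries overlapped. A count of 3 in a library corresponds to 0.200 to 0.255 CPM, the count scaled by library size, and is taken here as the floor, which covers counting error only. Of the cord's own markers, 8 of 8 spinal neuron genes, 8 of 8 astrocyte genes and 15 of 15 central myelin genes were tested, as were 4 of 6 names of motor neuron genes and 3 of 6 of lumbar Hox genes. Counts of other cell types moved with the condition: 6 of 8 microglia genes passed the test upward, against 15.8% of all tested genes. The microglia sum was 244 to 314 CPM in sham and 715 to 841 CPM in BCP libraries. For T cells, 7 of 8 genes were tested and all 7 passed upward. The sum over the 8 genes was 6.08 to 6.63 CPM in sham and 49.2 to 56.5 CPM in BCP. With sums this low in sham, genes of this list could enter the test through their BCP counts, which favours calls upward. All 5 red blood cell genes found also passed upward, with sums of 249 to 264 CPM and 476 to 689 CPM. The part of these cells in the results below was not tested, and in whole tissue fewer cells of a type and less RNA per cell cannot be told apart.

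Levels between genes were compared on the authors' FPKM, which divides by transcript length. In sham libraries Pmp22 averaged 22.5 FPKM (21.0, 23.1 and 23.3 in sham 1 to 3), Pmp2 1.77 ± 0.379, Avil 1.34 ± 0.210, Prx 1.04 ± 0.146 and Egr2 0.169 ± 0.118 FPKM (mean ± SD, n = 3). In BCP the order was the same, with 19.9 ± 2.39 FPKM for Pmp22, 2.24 ± 0.466 for Pmp2, 0.908 ± 0.214 for Avil, 0.801 ± 0.114 for Prx and 0.440 ± 0.0795 for Egr2. The order in sham runs from Pmp22, far above the rest, to Egr2, while the sham libraries of Pmp2 and Avil overlapped, as did those of Avil and Prx. Among the 14908 tested genes, these sham means stood at percentiles 75.7, 15.5, 12.3, 9.97 and 1.21 in the same order. Thus 4 of the 5 tested genes belonged to the lowest-expressed part of the table, and Pmp22 did not. By comparison Mbp, a structural protein of both sheaths, averaged 5458 FPKM and Mog, a surface protein of central myelin, 235 FPKM in sham.

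**Figure D1:**
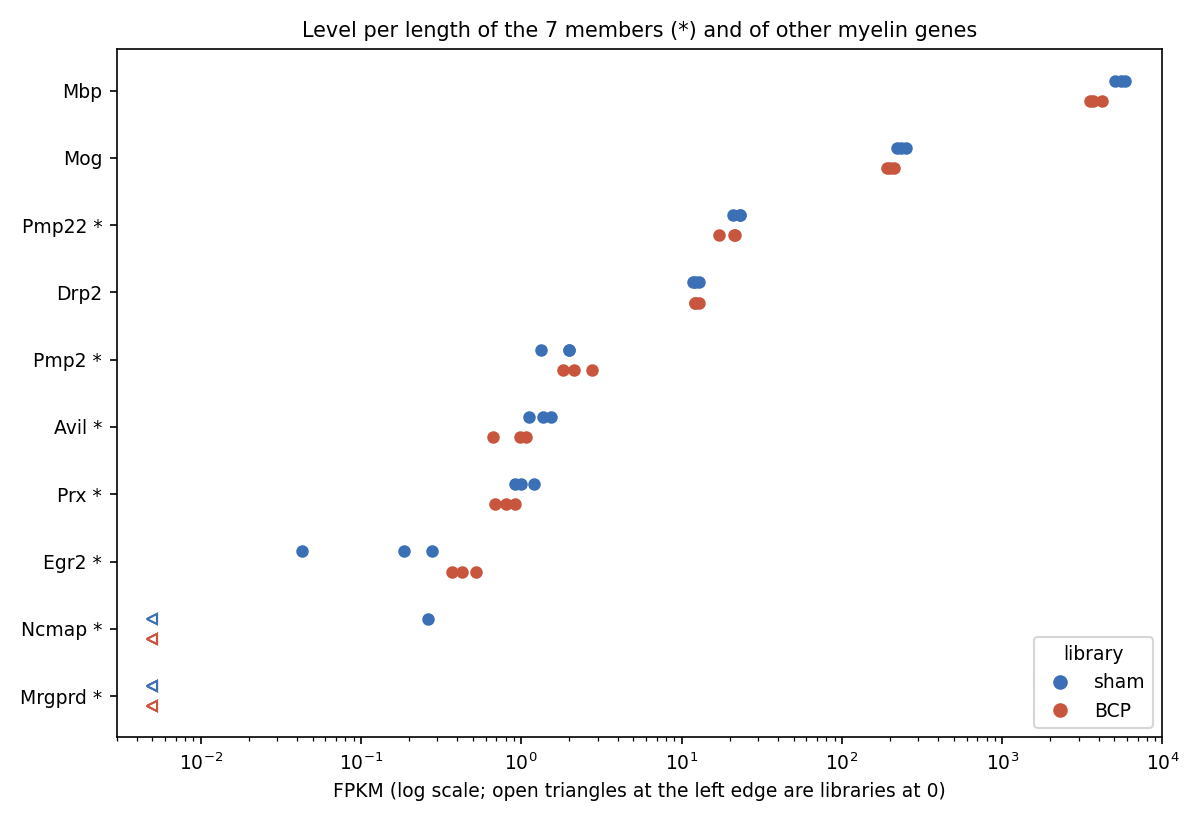
Level of each gene per library on the authors' FPKM, drawn on a log axis, with sham libraries in blue and BCP libraries in red and the 7 peripheral nerve genes starred. Mbp and Mog lie farthest to the right, Pmp22 well below them, and Pmp2, Prx and Avil near 1 FPKM, while Mrgprd is at 0 in every library and Ncmap in all but 1.

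Pmp22 encodes a small membrane protein of compact peripheral myelin whose gene dosage underlies hereditary neuropathies, and it is also transcribed in many other cells. The gene (ENSRNOG00000003338, chr10:49538588-49568583 of Rnor_6.0) had 917, 1097 and 1144 counts in sham 1 to 3 and 828, 951 and 728 in BCP 1 to 3. After scaling, these were 69.9, 76.5 and 77.2 CPM in sham and 69.9, 67.9 and 55.1 CPM in BCP. The groups touched, since sham 1 and BCP 1 were nearly equal, and BCP 3 was the lowest of all. The log2FC (BCP over sham, on the log2 scale) was -0.21 with a standard error of 0.08 and a 95% interval of -0.39 to -0.04, and the adjusted p of edgeR's quasi-likelihood test was 0.0594. It passed with upper-quartile scaling (0.0306), without sham 1 (0.0455) and without BCP 1 (0.0231), where the log2FC was between -0.27 and -0.25. Without BCP 3, the lowest library, the log2FC was -0.11 and the adjusted p 0.285, and without sham 2 the adjusted p was 0.190.

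Pmp2 encodes the fatty acid binding protein of the peripheral myelin sheath (ENSRNOG00000022707, chr2:93827504-93831419). Its counts were 24, 39 and 40 in sham 1 to 3 and 34, 34 and 48 in BCP 1 to 3, or 1.83, 2.72 and 2.70 CPM against 2.87, 2.43 and 3.63 CPM. The groups overlapped, with sham 1 lowest and BCP 3 highest. The log2FC was 0.29 ± 0.26 (SE), its 95% interval ran from -0.26 to 0.84, and edgeR's adjusted p was 0.457.

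Prx encodes periaxin, a scaffold of the Schwann cell membrane that binds Drp2 (ENSRNOG00000018369, chr1:84304228-84324560). Counts were 62, 61 and 83 in sham and 44, 58 and 41 in BCP, which gave 4.72, 4.26 and 5.60 CPM against 3.72, 4.14 and 3.10 CPM. Every BCP library lay below every sham library, although sham 2 and BCP 2 were close to each other. The log2FC was -0.41 ± 0.21 (SE), with a 95% interval from -0.85 to 0.03, and the adjusted p of edgeR's quasi-likelihood test was 0.166. No alternative setting brought it under the threshold.

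Ncmap, a protein of noncompact peripheral myelin (ENSRNOG00000048139, chr5:153729250-153737161), had 2 counts in sham 3 and 0 in the other 5 libraries. All libraries were under the floor of 3 counts, and over the 81368164 counts of the 6 libraries that floor corresponds to 0.0369 CPM. No fold or test was computed, and no difference was detectable at this depth.

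Egr2, also called Krox20, is the transcription factor that drives the myelin genes of Schwann cells, and as an immediate early gene it is also induced in neurons and blood cells (ENSRNOG00000000640, chr20:22454463-22459025). It had 12, 2 and 9 counts in sham 1 to 3 and 14, 19 and 22 in BCP 1 to 3, or 0.914, 0.140 and 0.608 CPM against 1.18, 1.36 and 1.66 CPM. All 3 BCP libraries were above all 3 sham libraries, and sham 2, with a count under the floor, was far below the rest. Egr2 was up-regulated 2.55-fold, with a log2FC of 1.35 ± 0.46 (SE), a 95% interval from 0.40 to 2.30 and an adjusted p of 0.0315 in edgeR's quasi-likelihood test. It was therefore 1 of 5 tested genes called upward, against 15.8% of all tested genes, and no gene was called downward, against 12.1%. For the 2-fold criterion together with the adjusted p, Egr2 was again called, as were 6.35% of tested genes upward and 0.107% downward. Only 1 of 3 sham libraries reached 10 counts, so that the gene entered the test through its BCP counts and had to be the higher there. The call was lost in DESeq2 (adjusted p 0.0982) and without sham 2 (0.163, log2FC 0.89), sham 3 (0.0613), BCP 2 (0.0724) or BCP 3 (0.125).

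Avil encodes advillin, an actin-binding protein that marks primary sensory neurons and is used as a marker of the dorsal root ganglion (ENSRNOG00000050419, chr7:70292565-70310588). Its counts were 62, 49 and 62 in sham and 38, 41 and 26 in BCP, corresponding to 4.72, 3.42 and 4.19 CPM against 3.21, 2.93 and 1.97 CPM. The groups did not overlap, and BCP 3 was again the lowest. The log2FC was -0.61 ± 0.24 (SE), with a 95% interval from -1.11 to -0.10, and edgeR's adjusted p was 0.0707. Of 16 alternatives only the likelihood ratio test of edgeR gave a call, at an adjusted p of 0.0471.

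Mrgprd, the receptor of a class of nonpeptidergic skin nociceptors (ENSRNOG00000013448, chr1:218487824-218488783), had 0 counts in all 6 libraries. The floor over all libraries is again 0.0369 CPM, so a level under it cannot be told from 0.

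Across these genes, the groups did not overlap in 2 downward (Prx and Avil) and 1 upward (Egr2), whereas 19.8% of all tested genes were separated downward and 21.7% upward. Separation of the libraries was therefore frequent over the whole table, and by itself it sets none of the 3 apart.

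**Figure D2:**
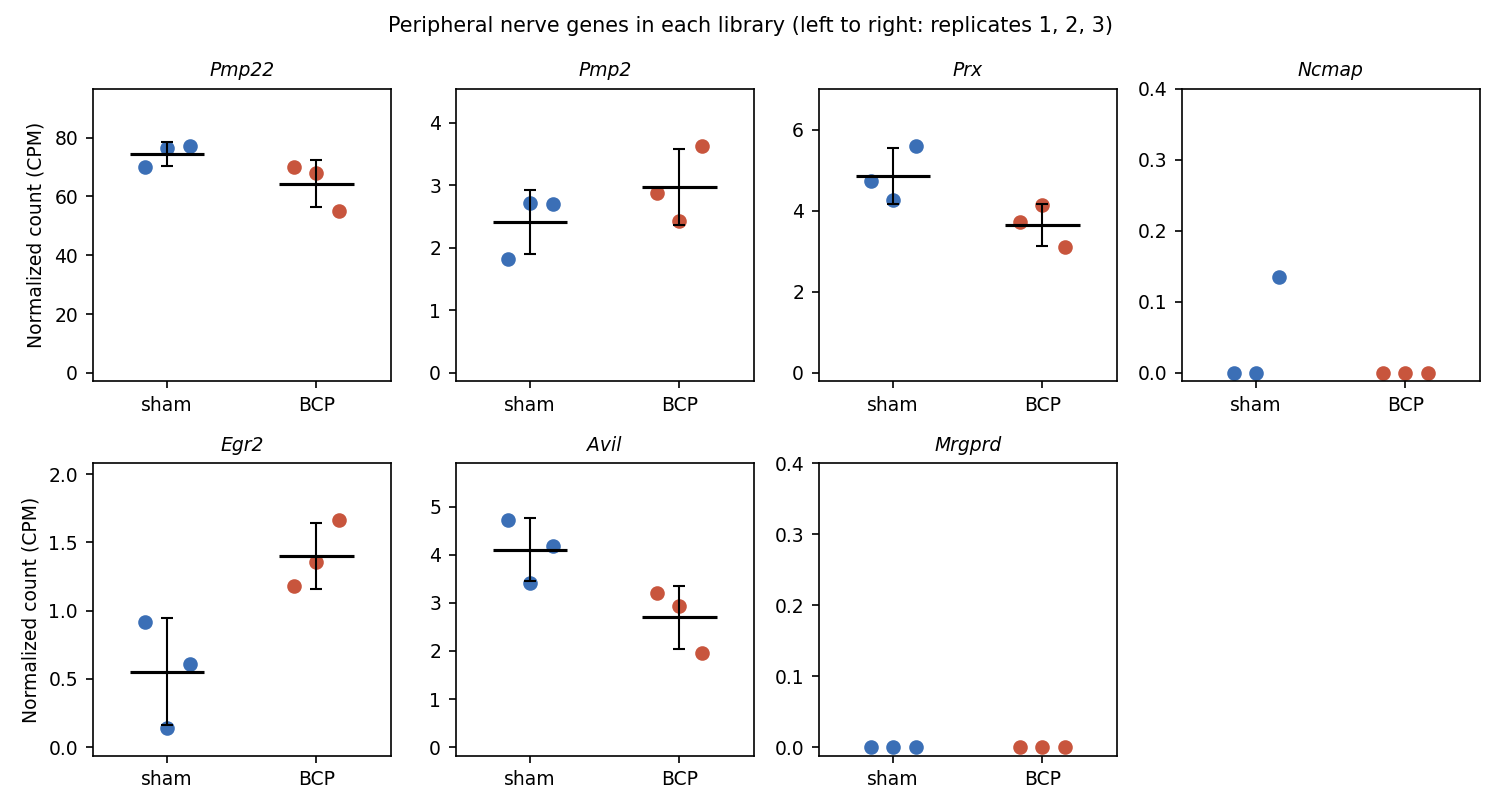
Normalized count (CPM, linear axis from 0) of the 7 genes in each library, with replicates 1 to 3 from left to right, horizontal lines for the group mean and bars for the SD (n = 3; none drawn for Ncmap and Mrgprd). Prx and Avil are lower and Egr2 higher in every BCP library than in every sham library, while Pmp22 and Pmp2 overlap.

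The upstream sequences of the 3 genes whose groups did not overlap are shown. This choice is for display only, since of these genes only Egr2 passed the test. The sequences are the 250 bases before the RefSeq start of each gene, 5′ to 3′ on the gene's strand. They come from assembly GRCr8, a later build than the Rnor_6.0 of the counts. RefSeq entries were matched for 5 of the 7 genes. Capitals mark matches on either strand to 5 motifs: the EGR site GCGTGGGCG, the SOX core ACAAAG, the CArG box bound by serum response factor, the CRE half-site TGACG and the TATA box TATAAA.
Egr2, chr20:21054442-21054691, minus strand: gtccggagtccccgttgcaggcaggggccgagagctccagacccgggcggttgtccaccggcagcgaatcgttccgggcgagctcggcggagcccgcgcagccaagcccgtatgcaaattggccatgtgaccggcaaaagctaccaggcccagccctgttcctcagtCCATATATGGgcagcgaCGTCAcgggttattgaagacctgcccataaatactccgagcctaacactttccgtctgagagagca
Prx, chr1:91914171-91914420, plus strand: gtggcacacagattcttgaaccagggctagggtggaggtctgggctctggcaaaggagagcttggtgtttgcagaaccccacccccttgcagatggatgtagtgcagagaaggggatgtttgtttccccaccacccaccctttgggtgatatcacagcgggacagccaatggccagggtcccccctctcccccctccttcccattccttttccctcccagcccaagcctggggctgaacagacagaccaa
Avil, chr7:64711153-64711402, plus strand: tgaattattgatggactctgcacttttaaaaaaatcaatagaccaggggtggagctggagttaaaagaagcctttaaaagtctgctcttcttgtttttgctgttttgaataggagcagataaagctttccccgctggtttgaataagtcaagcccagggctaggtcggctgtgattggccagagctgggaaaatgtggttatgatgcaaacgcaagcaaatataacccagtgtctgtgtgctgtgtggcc
Egr2 held 1 CArG box, starting 83 bases before the gene's start, and 1 CRE half-site, starting 66 bases before it, with no overlap between them. The other 4 matched genes held no match to any of the 5 motifs in these windows. Among 33469 promoters of the same length, 1.5% held a CArG box, 18.2% a CRE half-site, 16.3% the SOX core, 12.9% the TATA box and 0.478% the EGR site. A match of letters is a description of the sequence and not a bound site.

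The 5 tested genes did not share one order of libraries within a group. In sham, Pmp22 was lowest in sham 1 and highest in sham 3, Prx and Avil were lowest in sham 2, and Avil was highest in sham 1. In BCP, Pmp22, Prx and Avil were lowest in BCP 3, where Pmp2 and Egr2 were highest. For Pmp2, Prx and Avil the spread of counts among same-group libraries was 0.993 to 1.93 times that of pure counting (chi-square per degree of freedom), whereas for Pmp22 it was 3.41 times in sham and 12.1 times in BCP, and for Egr2 3.83 times in sham and 0.576 times in BCP.

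**Figure D3:**
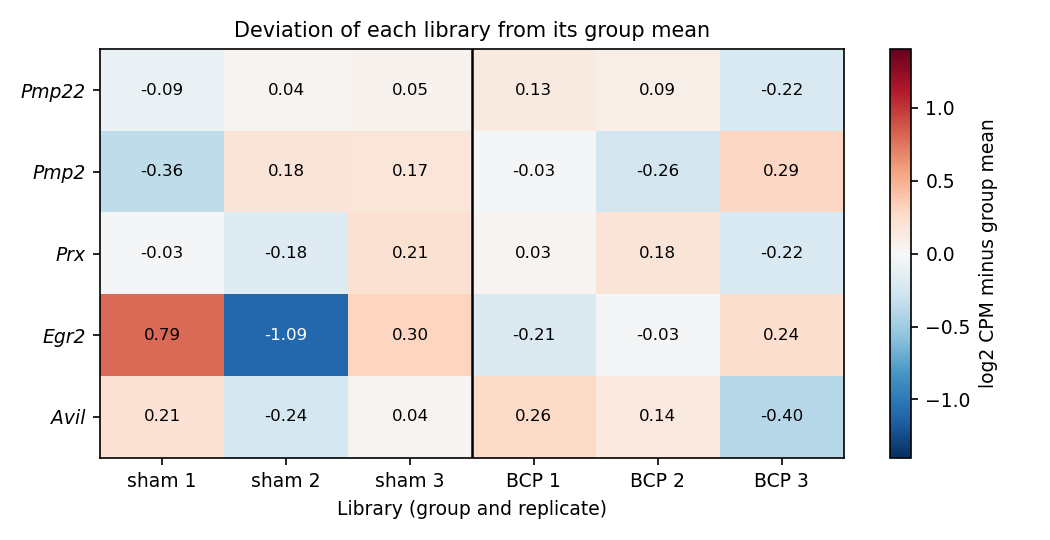
Deviation of each library from its group mean on the log2 CPM scale, for the 5 tested genes, with red above and blue below the mean. Egr2 is far below its mean in sham 2, while the other 4 genes stay within about 0.4 of the mean.

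Of 20 names of other Schwann cell genes 18 were found and 13 tested, with 1 called upward and 1 downward. Of all tested genes 15.8% were called upward and 12.1% downward. The median log2FC of the list was -0.02, beside -0.01 for all tested genes. Ngfr, the low-affinity neurotrophin receptor of immature and repair Schwann cells and of sensory axons, had 55, 59 and 90 counts in sham and 97, 108 and 75 in BCP. It was up-regulated by a log2FC of 0.58 (edgeR adjusted p 0.0386), although sham 3 was above BCP 3 once scaled, and the call was lost in 7 of 16 alternatives. Mpzl2, an immunoglobulin-family adhesion protein, fell from 74, 78 and 89 counts to 53, 31 and 50, with a log2FC of -0.72 (edgeR adjusted p 0.0234). That call was lost without sham 2, sham 3 or BCP 2, with an adjusted p of up to 0.153. Drp2, the partner of periaxin, had a log2FC of -0.02 with an interval from -0.14 to 0.10, and Lgi4, a secreted signal for Schwann cell myelination, one of -0.16 (adjusted p 0.0560, passed in 3 of 16 alternatives). Drp2 turned to 0.02 when libraries were scaled by their totals alone or sham 1 was left out. In sham Drp2 averaged 12.2 FPKM and Lgi4 28.6 FPKM, far above Prx at 1.04 FPKM, while Gldn averaged 0.818 FPKM. Which cells these transcripts came from was not tested, so the list median is not a measure of Schwann cells alone. Dhh, a Schwann cell ligand that organizes the nerve sheath, had 7, 0 and 4 counts in sham and 0 in each BCP library and was too low to be tested.

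Most of the myelin genes used by both sheaths were down-regulated. Of 15 genes tested, 13 were down-regulated, 1 was up-regulated and the median log2FC was -0.36. Of all tested genes 12.1% were called downward and 15.8% upward. Mbp fell from 282376, 264508 and 299789 counts in sham to 178806, 183620 and 166543 in BCP, a log2FC of -0.56 ± 0.09 (SE). Mag, an adhesion protein between glia and axon, fell by 0.42 on the log2 scale. Sox10, the glial factor that acts upstream of Egr2, fell by 0.31, and Erbb3, the neuregulin receptor of Schwann cells, fell by 0.36. Nab1 and Nab2 are the cofactors that bind Egr proteins. Nab2 had 108, 112 and 126 counts in sham and 104, 183 and 164 in BCP and was up-regulated by a log2FC of 0.49 (edgeR adjusted p 0.0246), whereas Nab1, with a log2FC of 0.12, did not pass. The Nab2 call was lost without sham 1, sham 2, BCP 2 or BCP 3, with adjusted p values of up to 0.150.

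In the list of central myelin and oligodendrocyte genes, 13 of 15 were down-regulated, against 12.1% of all tested genes. None of the list was up-regulated, and its median log2FC was -0.33. The summed level of the list was 5937 to 6216 CPM in sham and 4619 to 4881 CPM in BCP. Enpp6, of newly formed oligodendrocytes, fell by 0.64 on the log2 scale, Fa2h, which hydroxylates myelin lipids, fell by 0.56 and Ugt8, which makes galactosylceramide, fell by 0.51. Aspa and Olig2 did not pass. The peripheral genes stood beside this shift with log2FC values of -0.21 for Pmp22, -0.41 for Prx and 0.29 for Pmp2. The difference between the lists was not tested.

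**Figure D4:**
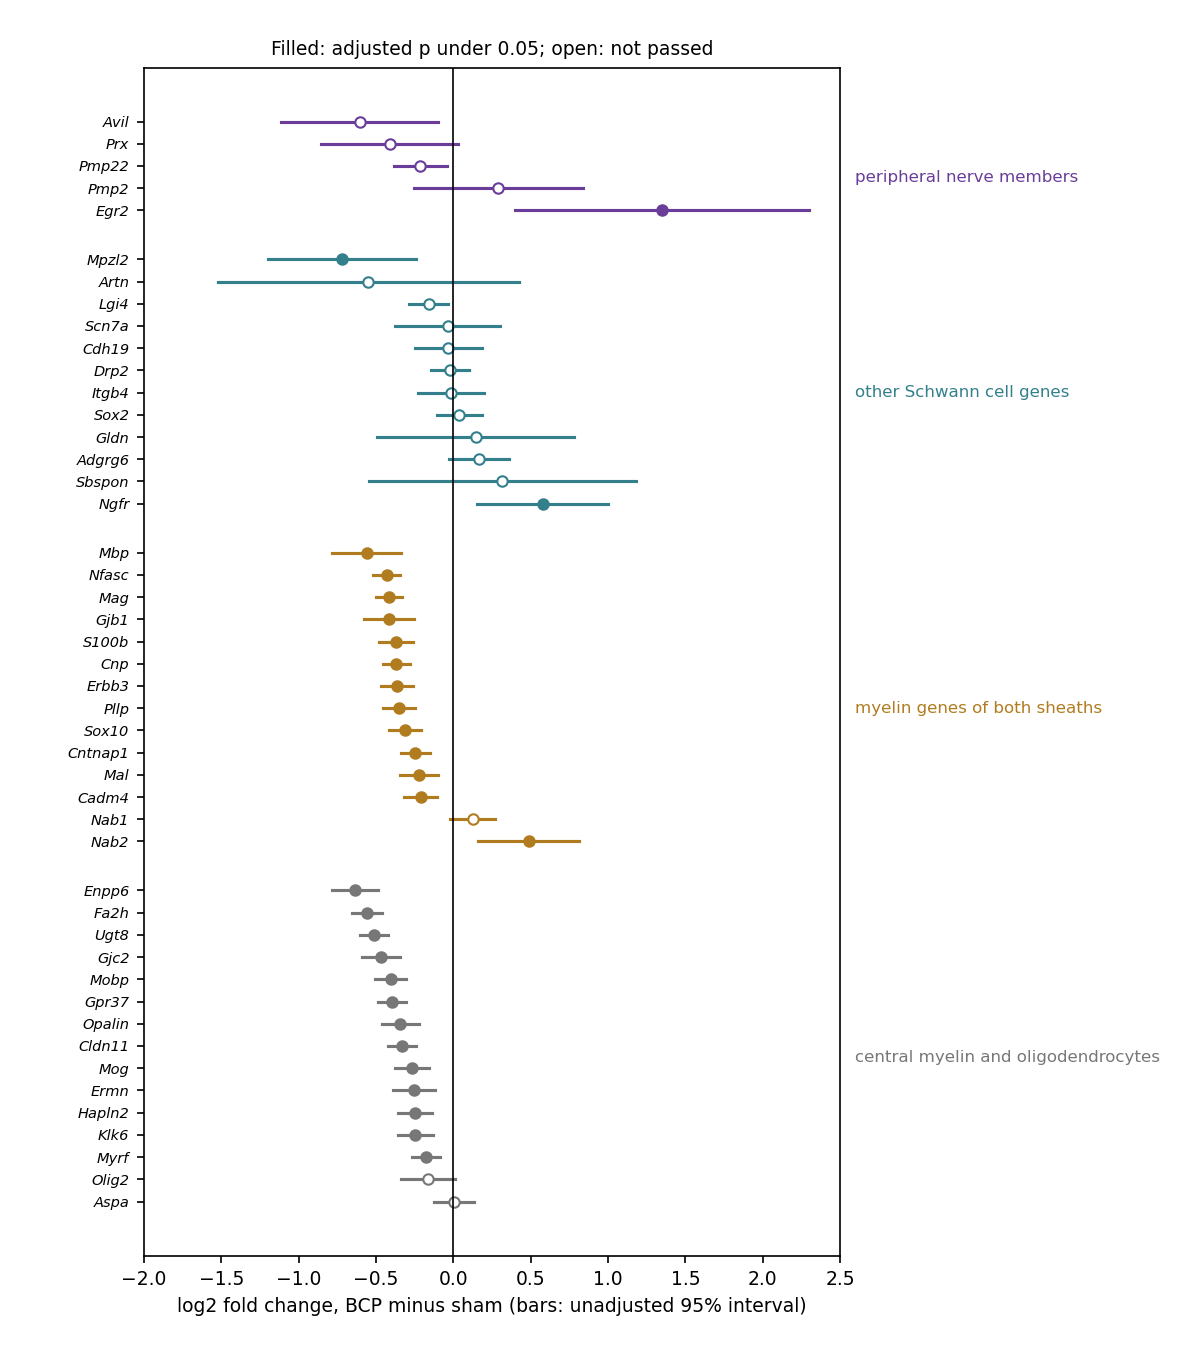
Log2FC (BCP minus sham) of the tested genes of 4 groups, leaving out any not reported here, with bars for the unadjusted 95% interval and filled circles for an adjusted p under 0.05. The central and shared myelin genes lie mostly between -0.6 and -0.2 with narrow intervals. The 5 peripheral genes scatter from -0.61 to 1.35, with wider intervals except for Pmp22.

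The summed counts of Pmp2, Prx, Ncmap and Pmp22, given as a percent of the summed counts of the 15 central myelin genes, need no scaling between libraries. The share was 1.23%, 1.41% and 1.43% in sham 1 to 3 and 1.57%, 1.61% and 1.33% in BCP 1 to 3. BCP 1 and BCP 2 were the highest, but BCP 3 lay within the sham range, so that the groups overlapped. The summed level of all 7 genes was lower in every BCP library, at 65.4 to 80.9 CPM against 82.1 to 90.5 CPM in sham. That sum also holds Avil, Egr2 and Mrgprd, which are not in the share. Of the tested genes in the share, Prx was lower in every BCP library, while Pmp22 and Pmp2 overlapped between the groups. The share is read beside its denominator, the central sum given above, which was lower in every BCP library. On the log2 scale the mean was -6.21 ± 0.119 in sham and -6.06 ± 0.149 in BCP (SD, n = 3), a difference of 0.15 with no test. Most of the summed counts came from Pmp22, and without it the difference was 0.23 and the groups still overlapped. With the mean of the log2 counts of each gene in place of the sum, it was 0.22 and the groups did not overlap. That version leaves out Ncmap, which had libraries without counts.

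Of 28 names of other primary sensory neuron genes, 26 were found and 19 tested, with 4 called upward, 4 downward and a median log2FC of -0.18, beside 15.8% of all tested genes called upward and 12.1% downward. The list was not tested against that background. Defining channels of nociceptor cell bodies were near the floor: Scn10a had 10, 4 and 8 counts in sham and 1, 1 and 7 in BCP, and Scn11a 4, 8 and 4 against 0, 1 and 2. Prdm12, a nociceptor transcription factor, had at most 3 counts in a library, and Mrgprb4, a receptor related to Mrgprd, had 0 in all. The genes called downward were Trpv1 (the capsaicin receptor), Calca (CGRP), Prph (peripherin) and Sst (somatostatin), and Prph is also a motor neuron gene and Sst one of dorsal horn interneurons. The Sst call was lost without sham 3 (adjusted p 0.0594).

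Trpv1 fell from 71, 74 and 61 counts to 43, 38 and 36, a log2FC of -0.70 (edgeR adjusted p 0.0225). The call was lost in DESeq2 and without sham 1, sham 2, BCP 2 or BCP 3, with adjusted p values of up to 0.0902. Calca fell from 574, 728 and 660 counts to 403, 381 and 360, a log2FC of -0.66 that passed under every alternative tried. Calcb, the second CGRP gene, had a log2FC of -0.36 that did not pass. Avil, at -0.61, stood near Trpv1 and Calca in log2FC, though Avil had 26 to 62 counts per library and Calca 360 to 728. Which cells these transcripts came from was not tested.

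Among those called upward, Runx3, a factor of proprioceptive neurons that T cells also use, had 0 counts in each sham library and 28, 43 and 49 in BCP. Runx3 therefore entered the test through its BCP counts and could only be the higher there. No fold is given against 0. Runx1, a factor of nociceptors and of myeloid cells, had a log2FC of 0.52 (adjusted p 0.0182, lost without sham 3, BCP 2 or BCP 3), Scn9a, a sodium channel of nociceptors, one of 0.33 (adjusted p 0.0115, lost without BCP 1) and Mrgprx3 one of 1.65. The T cell and microglia sums given above rose with the same condition, and their part was not tested.

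Meninges and connective tissue, which also cover a root, were read from 12 names. Of these 11 were found and 8 tested, with 1 called upward (Fmod, a collagen-binding proteoglycan) and 1 downward (Igf2, a growth factor of the meninges). Of all tested genes 15.8% were called upward and 12.1% downward. Summed levels of the list were 93.1 to 142 CPM in sham and 99.6 to 161 CPM in BCP. Igf2 fell by 0.94 on the log2 scale, and Fmod rose by 0.55, a call lost without sham 1. Ogn and Col1a2 were at 0 in all libraries. Dcn and Col3a1 were lowest in sham 1 and highest in sham 3, the order that Pmp22 had in sham, whereas in BCP Dcn had the order of Pmp2 and neither had that of Pmp22. With each value centred on its group mean, their Pearson r with the mean of Pmp2, Prx and Pmp22 over the 6 libraries was 0.746 for Dcn and 0.90 for Col3a1. Of 14446 candidate genes, 215 had an r over 0.9. In BCP 3 Pmp2 deviated by 0.29 and Prx and Pmp22 by -0.22 each, so that they partly cancelled in the mean. No r is given for the other genes of this list, and the part of this tissue in the results was not tested.

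Within 10 kb of the 7 genes lay 5 lncRNA transcripts near 4 of them, and 1 had enough counts to be tested. NONRATT017352.2 (chr20:22450246-22452491), 1972 bases from Egr2, had 618, 596 and 650 counts in sham and 547, 632 and 548 in BCP. Its log2FC was 0.03 ± 0.07 (SE) and its edgeR adjusted p 0.908, so it did not follow Egr2, where 1.57% of tested lncRNAs were called upward and 0.395% downward. NONRATT004386.2 and NONRATT004387.2, both within the Pmp22 span, had between 1 and 11 counts. NONRATT023717.2 overlapped Ncmap by 193 bases and had at most 2 counts in a library, as had NONRATT000517.2, 9948 bases from Prx. The use of strand in counting is not given in the sources used here, so reads of overlapping transcripts on opposite strands cannot be told apart.

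The genes whose within-group pattern was most like the mean of Pmp2, Prx and Pmp22 were Hyi, Kcnip3, Setmar, Vstm2a, Begain, RGD1565059, Pacsin3, Ptpn3, Pon3 and Skp1. Their Pearson r over the 6 libraries, with each value centred on its group mean, lay between 0.989 and 0.995. These genes were picked as the highest of 14446 candidates, of which 215 had an r over 0.9. With so few libraries, an r of this size is no evidence of a shared source, and none was tested.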

How the data were processed

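RNA-seq of 3 sham and 3 BCP libraries was used, grouped by their labels. Per the paper's methods, the authors used Seqtk to filter reads, HISAT2 2.0.4 to place them on Rnor_6.0 and StringTie 1.3.0 to quantify them. They deposited unnormalized counts per gene and lncRNA, and the authors' FPKM values beside them. The counter and its use of strand and of multiply mapped reads are not given in the sources used here, and Pmp22 shares its span with lncRNAs. edgeR 4.0.16 (R 4.3.3) was run on the counts of all genes: filter by expression (14908 of 30957 genes kept), TMM, robust quasi-likelihood fit on condition, and Benjamini-Hochberg adjustment over all tested genes. lncRNAs were fitted separately. The thresholds were an adjusted p of 0.05 and, where stated, a 2-fold change. CPM used library totals and TMM factors, which ranged from 0.982 to 1.02. The biological coefficient of variation was 7.72%. SEs came from the log2FC and the F statistic.

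The 7 genes and all lists were chosen with earlier results of these data known, so counts over them are descriptions. Named genes were the 7 members, list genes with the smallest p or that define a cell type, lncRNAs within 10 kb, and the 10 genes of most like pattern. Some list genes are counted but not reported singly here. Same-group libraries differed by more than counting noise (chi-square per degree of freedom 3.48 to 6.04). Scripts were tested on simulated counts. Alternatives were DESeq2 1.42.0, other edgeR tests, scalings and filters, the replicate number as a block, and each library left out. Further lists were not described singly: endothelial cells (0 of 7 tested called), astrocytes (1 upward and 5 downward of 8), spinal neurons (3 downward of 8), motor neurons (2 downward of 4), lumbar Hox genes (1 downward of 3) and skeletal muscle (1 downward of 3). The shares over all tested genes were 15.8% upward and 12.1% downward. Python 3.11.15 and matplotlib 3.10.9 made the figures.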

Additional observations from a re-analysis of the deposited data

How the results depend on the processing

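Of the settings tried for single genes and the lncRNA near Egr2, 518 kept the direction and side of the threshold, 30 lost the call, 7 gained one and 3 turned the sign. Those 3 were Drp2 with library size only (0.019) and without sham 1 (0.017) and NONRATT017352.2 without sham 2 (-0.0074), none of them called. With a library left out, Drp2 ranged from -0.050 to 0.017 and NONRATT017352.2 from -0.0074 to 0.079. Among the 7 genes, 1 was called upward, but 0 with at least 10 counts in every library (where Egr2 was not tested) and 0 with DESeq2, and 0 to 1 with a library left out. None was called downward, but 1 was with upper-quartile scaling (Pmp22), 1 with the likelihood ratio test (Avil) and 0 to 1 with a library left out. Scaling moved the median log2FC of all genes by at most 0.041. Genes past both thresholds downward numbered 16, but 37 with no filter, 6 with at least 10 counts in every library and 16 to 33 with a library left out (33 without BCP 1). lncRNAs called upward numbered 191, but 126 with no filter and 57 to 133 with a library left out. Those called downward numbered 48, but 31 with no filter, 86 with at least 10 counts in every library, 75 with DESeq2, 24 without the robust fit and 19 to 45 with a library left out. The cause was not tested. The ratio of peripheral to central counts differed by 0.08 to 0.23 with a library left out.

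Replicate numbers did not pair the libraries: deviations of same-numbered sham and BCP libraries correlated at -0.11, 0.04 and -0.04 over genes. With the number as a block, 1 of the 7 genes was still called upward and 0 downward, 2217 genes upward and 1597 downward, but 49 lncRNAs upward and 15 downward. The low counts of Egr2, Ncmap and Mrgprd limit what could be detected. Pmp2, Prx and Avil were limited too, with standard errors of 0.26, 0.21 and 0.24 on the log2FC. That they did not pass is therefore no sign that they were unchanged.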
